A study of Mus musculus with 43 samples.

Results

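The aryl hydrocarbon receptor (Ahr) and 9 genes that act with it in the handling of foreign compounds were followed in brain endothelial cells (EC) of 7 mouse strains: its partner Arnt, the cytochrome P450 enzymes Cyp1a1 and Cyp1b1, the P450 reductase Por, the quinone reductase Nqo1, the glutathione S-transferases Gsta4, Gstm1 and Gstm5, and Nfe2l2, which encodes the transcription factor Nrf2. They were chosen by gene symbol, and 10 of 10 symbols were found among the 54532 genes of the count table. EC were sorted as CD45-, CD11b- and CD31+ cells from mice of 2 months, for which the labels name no treatment and no transgene. The 43 libraries came from 129S1/SvImJ (9), A/J (5), C57BL/6J (6), DBA/2J (5), NOD/ShiLtJ (6), CAST/EiJ (6) and WSB/EiJ (6), of which CAST/EiJ and WSB/EiJ are recently wild-derived and the others long-inbred. There were 16 female and 27 male libraries, 21 from cortex and 22 from hippocampus, and each title also holds the word high or low, whose meaning is not given in the sources used here. The labels do not say which libraries came from 1 mouse, so p-values measure the spread between libraries, part of which may be technical.

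In the classical pathway, Ahr waits in the cytoplasm with heat shock protein 90, binds planar aromatic ligands, moves to the nucleus, pairs with Arnt and switches on genes such as Cyp1a1, Cyp1b1 and Nqo1. P450 enzymes oxidize foreign compounds with electrons that Por hands over from NADPH (phase I), and glutathione S-transferases and Nqo1 conjugate or reduce the products (phase II), many of them under Nrf2. At the blood-brain barrier, EC meet blood-borne compounds first, and this enzymatic layer is studied beside the efflux pumps.

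Totals ran from 1626534 to 49372356 counts per library. The median total was 21242058 in female and 5257353 in male libraries. The share of counts on 3 rRNA-like genes (Gm23935, Gm42418 and Gm26917) ran from 1.59% to 12.1% in female and from 13.0% to 29.3% in male libraries. Sex therefore cannot be told apart here from this share or from its source, which the labels do not name. Levels are given as CPM, a gene's share of the TMM-scaled library total, and as RPKM, the CPM per kilobase of exon, where genes are compared with each other. Canonical endothelial markers such as Pecam1, Cldn5 and Cdh5 were high: the 20 genes summed to between 11534 and 23581 CPM in every library. Astrocyte markers summed to between 1074 and 18556 CPM over 10 genes, pericyte markers to between 2029 and 9636 CPM over 10 genes, and microglia and macrophage markers to between 5.71 and 149.6 CPM over 10 genes, so RNA of other cells was present. In such bulk samples, fewer cells of a type and less RNA per cell cannot be told apart. Reads of all strains were aligned to mm10, and the authors describe CAST/EiJ and WSB/EiJ as carrying the most single nucleotide polymorphisms. The part of such sequence differences in the level counted for each strain was not tested. Differences between groups are log2 values fitted in edgeR's quasi-likelihood model, each with its standard error (SE), and p-values were adjusted by Benjamini-Hochberg over all 29120 genes tested (27529 among male libraries).

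The 10 genes covered a wide span of levels. Per kilobase, Gstm1 was the most abundant, with a median of 91.8 RPKM over 43 libraries, followed by Por (22.7), Gstm5 (22.5), Gsta4 (17.7), Nfe2l2 (15.1) and Arnt (9.95). Ahr itself stood at a median of 1.67 RPKM, and Nqo1 (0.179), Cyp1b1 (0.0403) and Cyp1a1 (0) were at the bottom. The enzymes that Ahr is best known to induce were therefore the least abundant of the set, while the receptor's partner, the P450 reductase and the conjugating enzymes were readily measured.

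Cyp1a1 was read in 1 library of 43, a 129S1/SvImJ male hippocampus library titled low, with 11 counts (4.55 CPM), and had no read in the other 42. In these libraries 3 counts, the limit that a count of 0 allows for counting error, correspond to between 0.0537 and 1.84 CPM. Its fitted fold changes rest on that 1 library and are not given. Of the 11 listed Ahr target genes, 3 (Nfe2l2, Tiparp and Nqo1) had a median above that of Cyp1b1, and Cyp1a2, Ugt1a6b and Gsta1 had no read in any library. Tiparp, an Ahr-induced ADP-ribosyltransferase that restrains the receptor, had a median of 14.6 CPM, and Ahrr, the Ahr repressor, exceeded 3 counts in 3 libraries.

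The upstream sequences of the 3 classical target enzymes are shown because these genes were the ones nearly absent. The 250 bases before each start are from RefSeq (GRCm38.p6), and capitals mark GCGTG, the core of the element that Ahr and Arnt bind, searched on both strands (CACGC where it lies on the other strand). Cyp1a1 (chr9:57697363-57697612, plus strand) holds it 54 bases before the start, Cyp1b1 (chr17:79715062-79715311, minus strand) 76 bases before the start, and Nqo1 (chr8:107403206-107403455, minus strand) has no match in this window.
Cyp1a1: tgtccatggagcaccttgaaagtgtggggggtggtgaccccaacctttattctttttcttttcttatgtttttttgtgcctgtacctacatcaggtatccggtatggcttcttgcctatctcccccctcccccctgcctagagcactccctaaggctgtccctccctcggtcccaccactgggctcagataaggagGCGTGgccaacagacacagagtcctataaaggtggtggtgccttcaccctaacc
Cyp1b1: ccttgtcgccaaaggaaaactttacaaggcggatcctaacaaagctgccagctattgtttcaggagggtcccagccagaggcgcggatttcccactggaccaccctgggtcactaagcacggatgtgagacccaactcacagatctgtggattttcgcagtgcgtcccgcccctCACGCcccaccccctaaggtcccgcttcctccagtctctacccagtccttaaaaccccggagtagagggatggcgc
Nqo1: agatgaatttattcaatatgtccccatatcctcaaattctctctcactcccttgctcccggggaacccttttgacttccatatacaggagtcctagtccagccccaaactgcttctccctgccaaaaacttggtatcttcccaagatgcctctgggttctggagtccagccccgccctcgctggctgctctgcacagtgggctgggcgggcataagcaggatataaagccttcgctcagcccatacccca
GCGTG was found upstream of 6 of the 8 genes with a RefSeq entry (Ahr and Gsta4 had none), against 28.2% of all 32851 promoter windows of the same length. TGACNNNGC, a core of the antioxidant element bound by Nrf2, was found upstream of 3 of them (Arnt, Gstm5 and Nfe2l2) and in 10.2% of all windows. In Gstm5 the TGACNNNGC match overlaps a GCGTG match on the other strand. Such matches are descriptions of the sequence and were not tested as binding sites.

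Strain was the axis along which the set varied most clearly, and the difference lay in Gsta4, a glutathione S-transferase known for conjugating 4-hydroxynonenal, a product of lipid peroxidation. Gsta4 (ENSMUSG00000032348, chromosome 9, 78182774 to 78209349 on the plus strand of GRCm38) was high in 129S1/SvImJ and C57BL/6J and low in the other 5 strains. In 129S1/SvImJ its 9 libraries ran from 91.2 to 238.8 CPM with a median of 153.9, and in C57BL/6J its 6 libraries ran from 103.7 to 167.5 CPM with a median of 120.3. The 5 A/J libraries stood at 31.6, 21.2, 25.4, 15.1 and 23.5 CPM. The 5 DBA/2J libraries stood at 39.5, 8.49, 12.2, 13.1 and 13.5 CPM, the first of them the only female one. NOD/ShiLtJ ran from 8.03 to 23.9 CPM (median 12.8, n = 6), WSB/EiJ from 0 to 56.2 CPM (median 13.8, n = 6) and CAST/EiJ from 3.46 to 15.8 CPM (median 5.38, n = 6). Every library of 129S1/SvImJ and C57BL/6J exceeded every library of the other strains.

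Mean Gsta4 was 159.7 ± 46.6 CPM in 129S1/SvImJ (SD, n = 9) and 7.16 ± 4.62 CPM in CAST/EiJ (SD, n = 6), 22.3 times lower. The fitted log2 difference between the highest and the lowest strain was 4.49 (edgeR quasi-likelihood test over 7 strains, adjusted p = 1.02e-15). Gsta4 was the only 1 of the 10 genes called among strains, where 2.68% of all genes tested were called. Among the 21 pairs of strains, 10 were called for Gsta4, namely 129S1/SvImJ or C57BL/6J against each of the other 5. Of all genes, 0.258% were called between 129S1/SvImJ and A/J, 0.999% against CAST/EiJ, 0.158% against DBA/2J, 0.391% against NOD/ShiLtJ and 1.01% against WSB/EiJ. Between C57BL/6J and the same strains in this order, 0.227%, 0.728%, 0.175%, 0.213% and 0.793% were called. The smallest of these differences was C57BL/6J over A/J with a log2 difference of 2.45 (SE 0.49, edgeR adjusted p = 0.00378), and the largest was CAST/EiJ under 129S1/SvImJ with -4.49 (SE 0.49, edgeR adjusted p = 1.49e-10). In the order of strain means (129S1/SvImJ, C57BL/6J, A/J, WSB/EiJ, DBA/2J, NOD/ShiLtJ, CAST/EiJ), the step from C57BL/6J to A/J was the only called step of 6. The other pairs of neighbours overlapped in range. Markers of other cells also differed among strains: 6 of 10 pericyte, 3 of 10 astrocyte and 7 of 20 endothelial markers were called, and the median summed pericyte level ran from 2272 CPM in CAST/EiJ to 8744 CPM in WSB/EiJ, with 3576 CPM in 129S1/SvImJ and 3806 CPM in C57BL/6J. Their part in the Gsta4 difference was not tested.

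**Figure D1:**
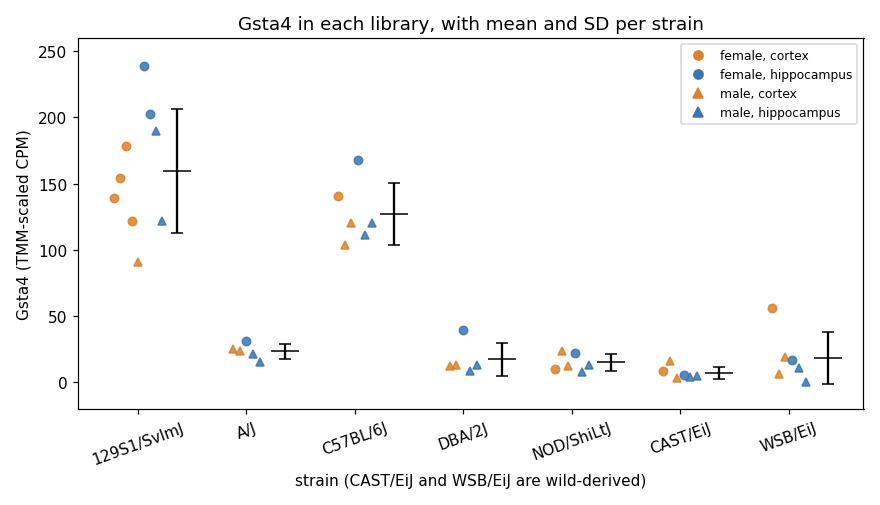
Gsta4 in each of the 43 libraries by strain, in TMM-scaled CPM on a linear axis, with region as colour, sex as symbol and the mean with SD in black. All 129S1/SvImJ and C57BL/6J libraries lie above 91 CPM, and the others at or below 56.2 CPM.

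The strains kept these levels when each region was read on its own. In cortex, Gsta4 was 136.9 ± 32.9 CPM in 129S1/SvImJ (SD, n = 5) and 121.7 ± 18.6 CPM in C57BL/6J (SD, n = 3), against 9.32 ± 6.22 CPM in CAST/EiJ (SD, n = 3). In hippocampus the same strains had 188.2 CPM on average (n = 4), 133.0 ± 30.2 CPM (SD, n = 3) and 4.24 to 5.85 CPM (n = 3). The strain by region interaction was called for none of the 10 genes and for none of the 29120 tested (edgeR, 0% of genes called), with 0 of the 10 and 613 of all genes at an unadjusted p under 0.05. On simulated counts this interaction test recovered none of the planted changes, so it does not bear on whether the strain differences are alike in the regions.

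Origin gave the same split in diluted form, since both wild-derived strains are among the low ones but 3 long-inbred strains are too. Gsta4 ran from 0 to 56.2 CPM in wild-derived libraries (median 7.64, n = 12) and from 8.03 to 238.8 CPM in long-inbred ones (median 39.5, n = 31), which overlap. It fell by 2.68 on the log2 scale in the wild-derived strains (SE 0.49, edgeR adjusted p = 3.23e-04), where the median of all genes was -0.38 and 0.749% of genes were called (0.508% higher and 0.24% lower in wild-derived strains). The origin test took each library as a unit and had no term for strain. Its SE and p-values, here and in later origin comparisons, therefore do not measure the spread between strains of the same origin. Gsta4 was the only 1 of the 10 called, and it did not pass in cortex alone (edgeR adjusted p = 0.188) or without CAST/EiJ (edgeR adjusted p = 0.0984). The markers Sox9 of astrocytes (-1.28) and Ly6c1 of EC (-2.05) were also lower and Lamc3 of fibroblasts (0.70) higher in wild-derived strains. These log2 differences passed the edgeR test, and the part of these markers was not tested. Ly6c1 was 3.83 ± 5.69 CPM in WSB/EiJ and 198.2 ± 48.3 CPM in CAST/EiJ (SD, n = 6 each). The 20 endothelial markers summed to a median of 19206.9 CPM in wild-derived and 18242.5 CPM in long-inbred libraries. Their mean log2(CPM + 1) was 9.04 and 9.19. Against A/J, DBA/2J and NOD/ShiLtJ alone, a comparison added after the data were seen, the wild-derived strains differed by -0.61 (SE 0.45, edgeR adjusted p = 0.658).

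The other 9 genes were not called among strains, which does not show equal levels, since the strain test missed most planted changes on simulated counts. Gstm1 came nearest (adjusted p = 0.115). Its 5 A/J libraries stood at 152.3, 295.8, 374.7, 196.1 and 184.9 CPM, its 5 DBA/2J libraries at 114.7, 113.6, 118.0, 129.2 and 74.9 CPM, and the other strains had means between 118.9 and 169.8 CPM. All A/J libraries lay above all DBA/2J libraries, yet no pair of strains was called for Gstm1 (smallest edgeR adjusted p = 0.157). It was called when the 5 libraries under 3000000 counts were left out (edgeR adjusted p = 0.0303) or when all libraries were thinned to the smallest total (edgeR adjusted p = 0.0347). Gstm5 was also highest in A/J (67.9 ± 47.2 CPM, SD, n = 5) and lowest in WSB/EiJ (15.9 ± 11.2 CPM, SD, n = 6), with ranges that overlap (edgeR adjusted p = 0.327). No pair of strains was called for any of these 9 genes, where 0.306% of all genes were called between 129S1/SvImJ and C57BL/6J. Among the other strains, 0.433% were called between A/J and CAST/EiJ, 0.137% between A/J and DBA/2J, 0.0893% between A/J and NOD/ShiLtJ and 0.44% between A/J and WSB/EiJ. CAST/EiJ differed from DBA/2J in 0.505%, from NOD/ShiLtJ in 0.426% and from WSB/EiJ in 1.22% of genes, and DBA/2J and NOD/ShiLtJ (0.103%), DBA/2J and WSB/EiJ (0.381%) and NOD/ShiLtJ and WSB/EiJ (0.453%) lay in the same span.

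Ahr differed little among strains relative to its spread. Its mean was highest in NOD/ShiLtJ (20.3 ± 14.3 CPM, SD, n = 6) and A/J (19.3 ± 19.1 CPM, SD, n = 5) and lowest in DBA/2J (7.13 ± 4.68 CPM, SD, n = 5), and 5 of 43 libraries had no read. Arnt means ran from 67.5 ± 16.4 CPM in NOD/ShiLtJ to 128.0 ± 65.4 CPM in WSB/EiJ (SD, n = 6 each), the latter with 1 library at 236.0 CPM. Por, through which all microsomal P450 enzymes receive electrons, had strain means from 70.9 ± 41.4 CPM in 129S1/SvImJ (SD, n = 9) to 106.3 ± 81.8 CPM in WSB/EiJ (SD, n = 6). Nfe2l2 ran from 48.9 ± 38.1 CPM in DBA/2J (SD, n = 5) to 77.8 ± 13.4 CPM in WSB/EiJ (SD, n = 6). The edgeR adjusted p among strains was 0.823 for Ahr, 0.64 for Arnt, 0.853 for Por and 0.822 for Nfe2l2. No neighbouring pair in the order of strains was called for any of the 4, and all such pairs overlapped in range. The widest of these steps was Ahr in CAST/EiJ over WSB/EiJ (0.58, SE 0.97), followed by Arnt in WSB/EiJ over C57BL/6J (0.56, SE 0.33, edgeR adjusted p = 0.71).

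Nqo1, which reduces quinones and is a common target of Ahr and Nrf2, was listed at 0 in 19 of 43 libraries. In WSB/EiJ, 2 female libraries stood at 31.4 CPM (hippocampus) and 35.9 CPM (cortex), and 3 of the other 4 had no read. No other library exceeded 14.4 CPM. Cyp1b1 likewise had no read in 18 libraries, and in WSB/EiJ no library exceeded 3 counts. WSB/EiJ was also the strain with the lowest median total (2721155 counts, against 5790701 over all 43 libraries). Neither was called among strains (edgeR adjusted p = 0.797 and 0.82).

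**Figure D2:**
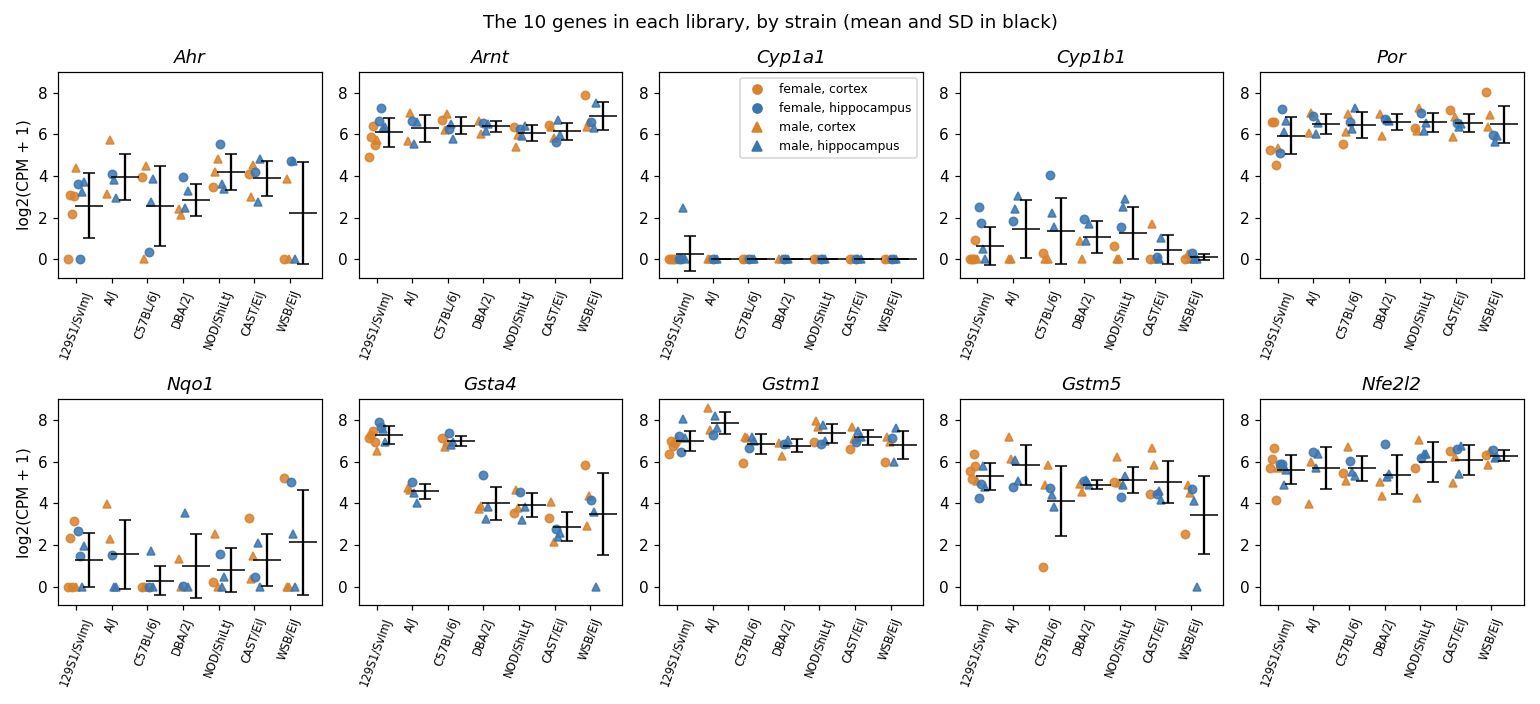
The 10 genes in each of the 43 libraries as log2(CPM + 1) by strain, with region as colour, sex as symbol and the mean with SD in black. Gsta4 separates 129S1/SvImJ and C57BL/6J from the other strains, Cyp1a1 is at 0 in all but 1 library, and the remaining genes overlap between strains next to each other in the order of their means.

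Cortex and hippocampus were compared over all strains, and none of the 10 genes was called (edgeR), where 0.0755% of all genes tested were called (0.0549% higher and 0.0206% lower in cortex). At an unadjusted p under 0.05 there were 2, Cyp1b1 and Gstm5, among 1631 of 29120 genes, and DESeq2 called 1, Cyp1b1, among 55 of 29120. Cyp1b1, which oxidizes estradiol and polycyclic aromatic compounds, had a median of 0 CPM in cortex (0 to 2.22, n = 21) and of 2.11 CPM in hippocampus (0 to 15.7, n = 22). It exceeded 3 counts in 4 of 21 cortex and in 15 of 22 hippocampus libraries. The fitted log2 difference, cortex minus hippocampus, was -3.55 (SE 1.25, edgeR adjusted p = 0.615), and DESeq2 gave -3.60 (SE 0.81, adjusted p = 0.00616). In 18 comparisons of libraries of the same strain, sex and tag, Cyp1b1 was lower in cortex in 14, higher in 2 and tied in 2. In the wild-derived strains no library exceeded 2.22 CPM in either region. Of the cell type markers, the astrocyte gene Gfap was the only 1 called by region, lower in cortex by -1.61 (SE 0.35, edgeR adjusted p = 0.0229), and its part was not tested.

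Gstm5 ran from 0.942 to 145.1 CPM in cortex (median 32.1, n = 21) and from 0 to 66.9 CPM in hippocampus (median 26.0, n = 22). Its log2 difference of 0.76 (SE 0.30, edgeR adjusted p = 0.669) did not pass the test, and it was higher in cortex in 12 of 18 matched comparisons. Gstm5 overlaps the antisense gene 4933431E20Rik, and whether reads were counted by strand is not given in the sources used here, so reads of both genes may be mixed. Nfe2l2 was lower in cortex in 13 of 18 matched comparisons, with a log2 difference of -0.21 that did not pass the test (SE 0.21, edgeR adjusted p = 0.75). Nqo1 had a log2 difference of 0.38 with a wide error (SE 0.96) and Ahr one of -0.07 (SE 0.51). For Gsta4, Gstm1, Por and Arnt the log2 differences lay between -0.07 and 0.07, with SE of 0.44, 0.17, 0.19 and 0.18.

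**Figure D3:**
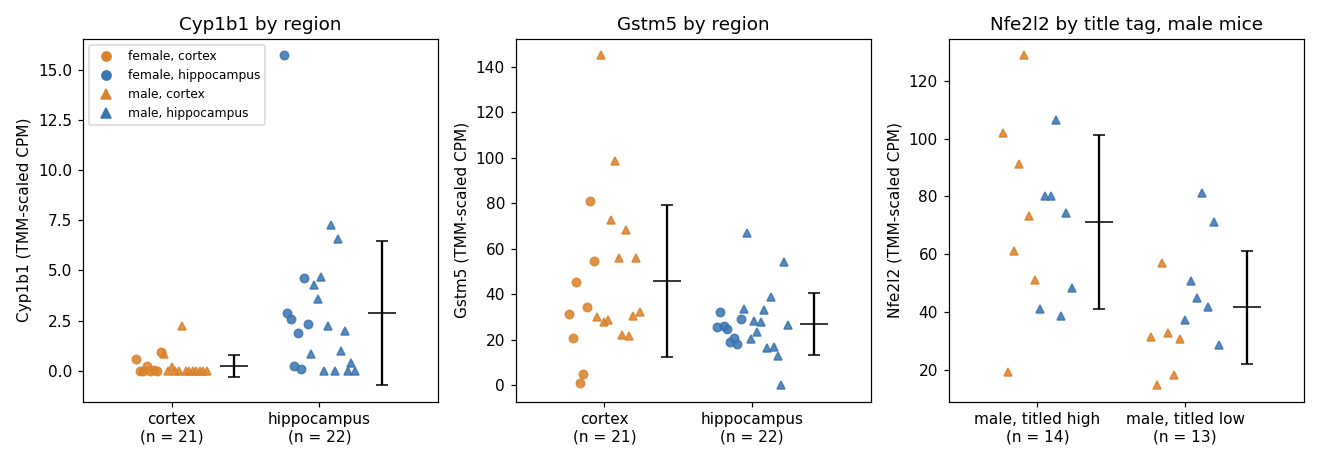
Cyp1b1 and Gstm5 in cortex and hippocampus, and Nfe2l2 in male libraries by title tag, in TMM-scaled CPM on linear axes, with region as colour, sex as symbol and the mean with SD in black. Cyp1b1 stays at or below 2.22 CPM in cortex and reaches 15.7 CPM in hippocampus, and male libraries titled high reach 128.9 CPM of Nfe2l2 against 81.2 CPM in those titled low.

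Between the sexes, Gstm1 was the 1 gene of the 10 that was called, where 2.85% of all genes tested were called (2.56% higher and 0.292% lower in female). Gstm1 (ENSMUSG00000058135, chromosome 3, 108012255 to 108017973 on the minus strand) belongs to the mu class, which conjugates epoxides and other electrophiles. It ran from 59.1 to 152.3 CPM in female libraries (median 113.9, n = 16) and from 62.4 to 374.7 CPM in male libraries (median 144.0, n = 27). The groups overlapped, and no female library exceeded 152.3 CPM. Gstm1 fell by 0.62 on the log2 scale in female libraries (SE 0.16, edgeR adjusted p = 0.0151). The median of all genes was -0.12 with TMM and moved by -0.12 with DESeq2 size factors, and relative to it Gstm1 stood at -0.51 under either scaling. Within libraries titled high, Gstm1 was lower in female in 12 of 12 comparisons of the same strain and region, with a fitted difference of -0.42 that did not pass the test (SE 0.17, edgeR adjusted p = 0.28). With strain, region and tag as covariates it was -0.47 (SE 0.16, edgeR adjusted p = 0.134).

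Some cell type markers also differed between the sexes. Of the 10 astrocyte markers, 2 were called, both lower in female libraries: Slc1a2 by -1.17 (SE 0.22, edgeR adjusted p = 1.18e-04) and Slc1a3 by -0.78 (SE 0.23, edgeR adjusted p = 0.036), the glutamate transporters of astrocytes. The endothelial genes Esam (0.61) and Egfl7 (1.18) and the choroid plexus gene Ttr (2.52) were higher in female libraries. These log2 differences passed the edgeR test. Over all 20 endothelial markers, the mean log2(CPM + 1) was 9.14 in female and 9.15 in male libraries. The summed level of all 10 astrocyte markers ran from 1074 to 4652 CPM in female libraries (median 2316) and from 1403 to 18556 CPM in male libraries (median 3823). Slc1a2 made up a large part of this sum, with means of 1883 CPM in female and 4241 CPM in male libraries. The mean log2(CPM + 1) of the 10 markers, which weighs them equally, was 5.42 in female and 5.83 in male libraries. S100b of this list had the higher mean in female libraries (37.0 against 26.6 CPM). The share of rRNA-like counts also differed by sex, and with that share as a covariate the Gstm1 difference was -0.57 (SE 0.31, edgeR adjusted p = 0.525). The part of the markers in the Gstm1 difference was not tested. A transcript of the pseudogene Gstm2-ps1 matches Gstm1 over 657 bases at 97.9% identity, so that some of its reads could be shared, as could those of Ahr with Gm48236 over 127 bases.

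**Figure D4:**
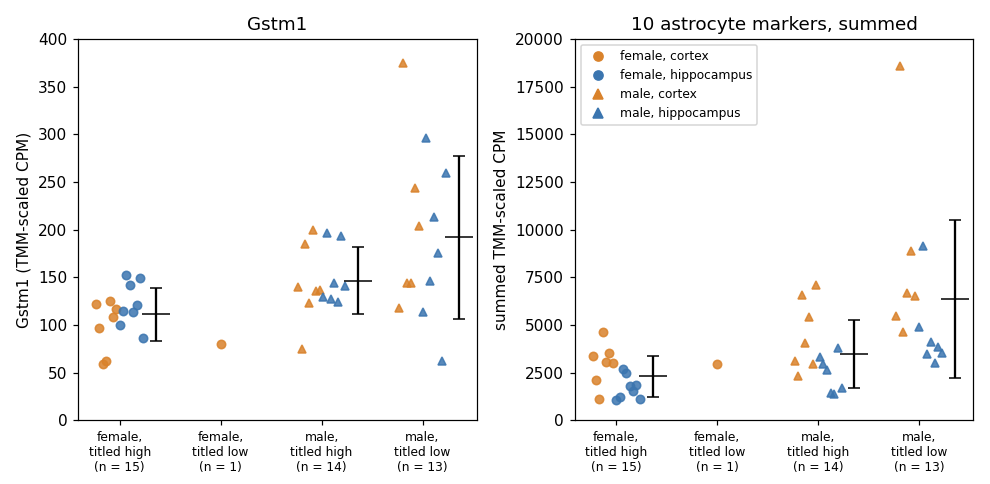
Gstm1 (left) and the summed level of 10 astrocyte markers (right) in each library by sex and title tag, in TMM-scaled CPM on linear axes from 0, with region as colour, sex as symbol and the mean with SD in black for groups above 1 library. Female libraries stay at or below 152.3 CPM of Gstm1, and the highest male library for Gstm1, at 374.7 CPM, is titled low.

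Gsta4 was higher in female libraries (5.85 to 238.8 CPM, median 88.9, n = 16) than in male ones (0 to 189.7 CPM, median 15.1, n = 27), without passing the test (log2 difference 1.22, SE 0.41, edgeR adjusted p = 0.0979). The sexes were not balanced over strains: 6 of the 9 libraries of 129S1/SvImJ, the strain with the most Gsta4, were female. With strain, region and tag as covariates the difference was 0.80 (SE 0.25, edgeR adjusted p = 0.0989), and within strains, regions and the tag high, Gsta4 was higher in female in 11 of 12 comparisons. Over 19 alternative settings the fitted Gsta4 difference ran from -1.16 to 1.61, and its sign changed in 1 of them. Nqo1 was higher in female in 10 of 12 such comparisons and tied in 2, with a fitted difference of 1.71 (SE 0.95, edgeR adjusted p = 0.433). Nqo1 exceeded 3 counts in 10 of 16 female and in 10 of 27 male libraries, and the median total of the female libraries was the higher one (21242058 against 5257353 counts).

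Title tags were compared within the 27 male libraries, because 15 of 16 female libraries are titled high. None of the 10 genes was called (edgeR), where 1.06% of all genes were called (0.294% higher and 0.77% lower in libraries titled high). At an unadjusted p under 0.05 there were 3 (Nfe2l2, Por and Gstm1), among 2233 of 27529 genes, and DESeq2 called 1, Nfe2l2, among 640 of 27529. Nfe2l2 ran from 19.1 to 128.9 CPM in libraries titled high (median 73.6, n = 14) and from 14.7 to 81.2 CPM in those titled low (median 37.4, n = 13). The difference, high minus low, was 0.78 (SE 0.25, edgeR adjusted p = 0.132). It was 0.83 with strain and region as covariates (SE 0.23, edgeR adjusted p = 0.0441) and 0.78 in DESeq2 (SE 0.26, adjusted p = 0.0309), and in 10 of 13 comparisons within a strain and region the library titled high was the higher. Por was higher in 11 of 13 (log2 difference 0.44, SE 0.19, edgeR adjusted p = 0.459), and Gstm1 was lower in 11 of 13 (-0.38, SE 0.18, edgeR adjusted p = 0.579).

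Some cell type markers also differed by tag. The endothelial genes Cldn5 (0.96, SE 0.15, edgeR adjusted p = 7.8e-05), Esam (0.62) and Slc2a1 (0.50) were higher and Erg (-0.60) lower in male libraries titled high. The astrocyte genes Slc1a2 (-0.88) and S100b (-1.59), the pericyte gene Rgs5 (-0.82) and the neuronal gene Snap25 (-0.95) were lower. All these log2 differences passed the edgeR test. Rgs5 did not stand for its list. The mean log2(CPM + 1) of the 10 pericyte markers was 7.01 in male libraries titled high and 6.88 in those titled low. Summed endothelial markers ran from 15874 to 23581 CPM in libraries titled high and from 15681 to 19164 CPM in those titled low, and summed astrocyte markers from 1403 to 7105 and from 3014 to 18556 CPM. Their part in the tag differences was not tested.

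The wider pathway was read from lists of genes with a known role. Of the 8 Ahr target genes that could be tested, none was called in any comparison (edgeR). Cyp1a1 of this list exceeded 3 counts in 1 library and not in 42. Cyp1b1 did so in 19 and not in 24, and Nqo1 in 20 and not in 23. Among the 10 genes of the Ahr complex, none was called among strains, by region, by origin or by tag (edgeR). The shares of all genes called were 2.68% among strains, 0.0755% by region, 0.749% by origin and 1.06% by tag. At shares this low, a lack of calls among 8 or 10 genes does not set them apart from all genes. Such a lack does not show equal levels either. Between the sexes, where 2.85% of all genes were called and 2.56% were higher in female, 2 of 10 were called, the heat shock protein 90 genes. Hsp90aa1 was 200.7 ± 75.6 CPM in female (SD, n = 16) and 109.3 ± 40.3 CPM in male libraries (SD, n = 27), a log2 difference of 0.88 (SE 0.16, edgeR adjusted p = 6.72e-05). Hsp90ab1 was 1658 ± 255 CPM in female (SD, n = 16) and 1036 ± 237 CPM in male libraries (SD, n = 27), a log2 difference of 0.68 (SE 0.10, edgeR adjusted p = 7.14e-07). These genes encode the chaperone that holds unliganded Ahr and many other clients.

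Of the 12 Nrf2 regulators, 1 was called, by tag (1.06% of all genes, 0.77% lower in libraries titled high): Nfe2l1, the relative of Nrf2 that drives proteasome genes, was 319.8 ± 47.9 CPM in male libraries titled high (SD, n = 14) and 494.9 ± 91.4 CPM in those titled low (SD, n = 13), a log2 difference of -0.62 (SE 0.12, edgeR adjusted p = 0.00212). Of the 20 Nrf2 target genes, 2 were called among strains (2.68% of all genes), the ferritin chains Ftl1 and Fth1. Ftl1 was lowest in WSB/EiJ (46.1 ± 30.4 CPM, SD, n = 6) and CAST/EiJ (70.8 ± 19.9 CPM, SD, n = 6) and highest in A/J (139.95 ± 53.7 CPM, SD, n = 5), with edgeR adjusted p = 0.0278, and was also the 1 gene of this list called by origin (0.749% of all genes), lower in wild-derived strains by -1.01 (SE 0.22, edgeR adjusted p = 0.00558). Fth1 was highest in CAST/EiJ (723.5 ± 67.3 CPM, SD, n = 6) and lowest in DBA/2J (371.5 ± 55.9 CPM, SD, n = 5), with edgeR adjusted p = 0.0152. By sex (2.85% of all genes), 1 of the 20, the peroxiredoxin Prdx1, was higher in female libraries by 0.92 (SE 0.20, edgeR adjusted p = 0.00176).

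Among 26 glutathione S-transferases tested, Gsta4 was the only 1 called among strains (2.68% of all genes) and by origin (0.749%), and Gstm1 the only 1 called by sex (2.85%). Other abundant members were Gstm7 (median 26.1 RPKM) and Gstk1 (7.66 RPKM), and Gsta1, Gsta2, Gstm3 and Hpgds were among those with a median of 0. Within 500000 bases of Gsta4, 2 of 20 neighbouring genes tested were called among strains (2.68% of all genes), Rn7sk (fitted range 1.51) and Eef1a1 (0.94), both named after their values were seen. Gsta2, in the same cluster, and Gclc, the catalytic subunit of glutathione synthesis, were not (edgeR adjusted p = 0.824 and 0.961). Around Gstm1, 1 of 40 was called, about the share of all genes: the antisense gene 4933431E20Rik that overlaps Gstm5 (edgeR adjusted p = 4.46e-05).

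Of 27 P450 enzymes tested, 1 was called among strains (2.68% of all genes) and by origin (0.749%). Cyp2d22, the mouse gene likened to human CYP2D6, was 140.5 ± 28.9 CPM in CAST/EiJ (SD, n = 6) and 134.8 ± 78.0 CPM in WSB/EiJ (SD, n = 6) and between 45.2 and 65.1 CPM on average in the long-inbred strains (edgeR adjusted p = 9.14e-04 among strains). It rose by 1.35 in wild-derived strains (SE 0.22, edgeR adjusted p = 3.58e-05), the direction opposite to Gsta4. With a median of 17.0 RPKM over 43 libraries it was the most abundant P450 enzyme of the list. Of 10 electron transfer genes, Cyb5r3, a cytochrome b5 reductase, was the 1 called, by tag (1.06% of all genes; -0.72, SE 0.17, edgeR adjusted p = 0.0129).

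Of 27 other phase II and oxidoreductase enzymes tested, 4 were called among strains (2.68% of all genes) and 2 by origin (0.749% of all genes). Aldh2, the mitochondrial aldehyde dehydrogenase, was 40.5 ± 13.3 CPM in CAST/EiJ (SD, n = 6) and between 155.6 and 226.8 CPM on average in the other strains, and the highest CAST/EiJ library, at 61.1 CPM, lay below the lowest library of every other strain (edgeR adjusted p = 4.01e-07). Pon2, an intracellular paraoxonase, was also lowest in CAST/EiJ (0 to 8.70 CPM, n = 6), below every library of the other strains (21.4 CPM or more, edgeR adjusted p = 2.67e-08). By origin it was lower in wild-derived strains by -1.52 (SE 0.36, edgeR adjusted p = 0.0162). WSB/EiJ, with a mean of 43.6 CPM (21.4 to 62.9, n = 6), overlapped all long-inbred strains but NOD/ShiLtJ (63.6 CPM or more). The lowest long-inbred mean was 51.4 CPM in 129S1/SvImJ. Fmo1, a flavin-containing monooxygenase, was 0.855 ± 1.11 CPM in WSB/EiJ (SD, n = 6), with no library above 3.03 CPM, and at least 8.89 CPM in each library of the other strains (edgeR adjusted p = 7.86e-08), and by origin it differed by -1.97 (SE 0.45, edgeR adjusted p = 0.00886). Aldh1a1, which forms retinoic acid and is named here after its values were seen, was highest in NOD/ShiLtJ (100.1 ± 38.7 CPM, SD, n = 6), though 1 WSB/EiJ library reached 139.2 CPM (edgeR adjusted p = 0.0102). By tag (1.06% of all genes), 1 of the 27, the epoxide hydrolase Ephx1, was higher in male libraries titled high (143.4 ± 52.7 against 69.8 ± 33.9 CPM, SD, n = 14 and 13), a log2 difference of 1.05 (SE 0.21, edgeR adjusted p = 0.00332). Among 9 xenobiotic nuclear receptors tested, 1, Ppard, was called among strains (2.68% of all genes), with the highest mean in WSB/EiJ (180.5 ± 79.5 CPM, SD, n = 6) and the lowest in DBA/2J (68.2 ± 9.79 CPM, SD, n = 5), at an edgeR adjusted p of 0.0265.

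**Figure D5:**
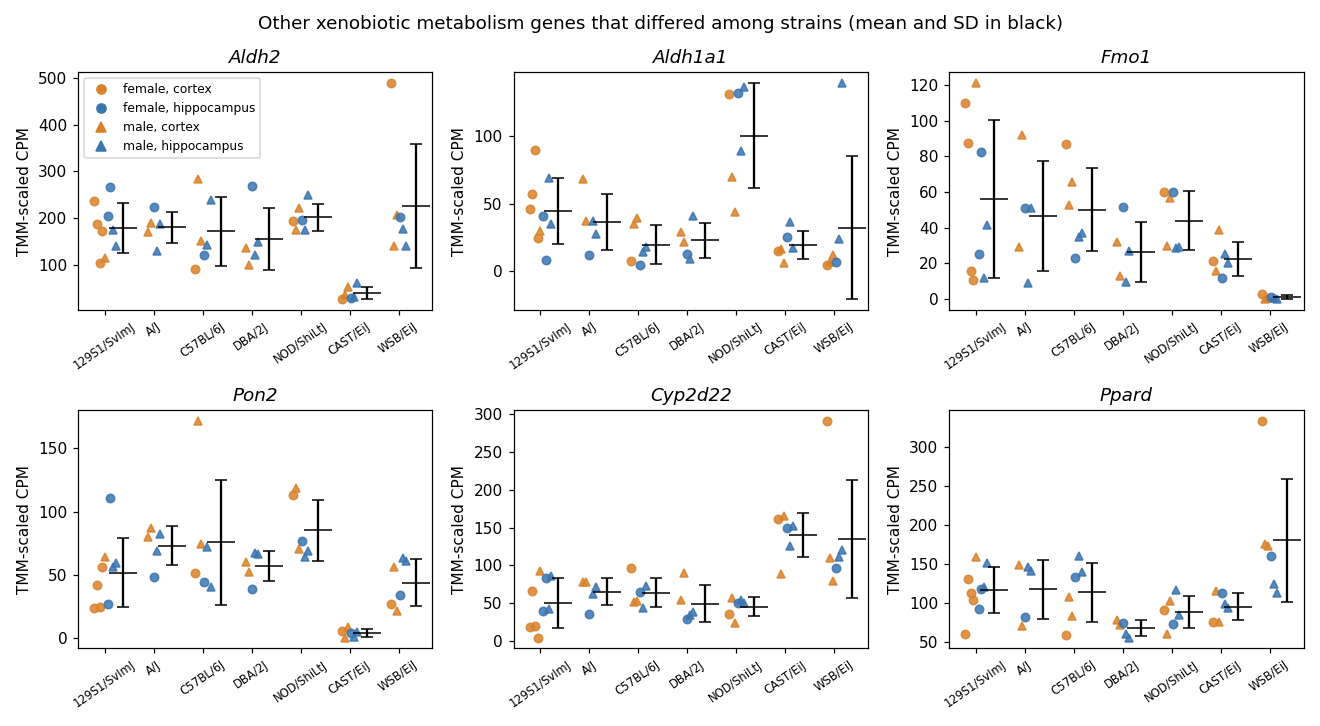
Aldh2, Aldh1a1, Fmo1, Pon2, Cyp2d22 and Ppard in each of the 43 libraries by strain, in TMM-scaled CPM on linear axes, with region as colour, sex as symbol and the mean with SD in black. CAST/EiJ is lowest for Aldh2 and Pon2, WSB/EiJ is lowest for Fmo1, and Cyp2d22 is highest in the 2 wild-derived strains.

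For the 7 genes of the set with a median of at least 10 CPM, the gene whose log2(CPM + 1) followed each most closely over the 43 libraries was sought among 7898 others, as a description. It was Bambi for Ahr (Pearson r = 0.753), Vcp for Arnt (0.683), Cdh5 for Por (0.698), Fam13c for Gsta4 (0.722), Fads2 for Gstm1 (0.749), S100a1 for Gstm5 (0.788) and Tsc22d1 for Nfe2l2 (0.701). The points of each correlation share strain, sex, region and depth.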

How the data were processed

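RNA of sorted brain EC was sequenced in 43 libraries. The authors depleted rRNA, prepared stranded single-end libraries, aligned reads to mm10 with HISAT2 2.1.0 and counted them with featureCounts (Subread 1.4.4). Deposited values were raw read counts for 54532 genes, and the strand setting of the counting is not given in the sources used here.

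The filter kept 29120 genes that reached 0.5 CPM in 1 library or more, and each comparison was fitted over all of them with edgeR 4.0.16 in R 4.3.3: TMM scaling, trended dispersion, bias-adjusted deviances, a two-sided quasi-likelihood F test, and a Benjamini-Hochberg adjusted p under 0.05. SE was the fold change divided by the square root of F. Fits with covariates left out genes that were fitted above 5 times their largest count. The test was tried on simulated counts. Alternatives were DESeq2 1.42.0, other scaling, filters, deviances, covariates and left-out libraries, strains or replicates.

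The genes and lists were chosen with earlier results of these data known. Named were all 10 genes and, per list and comparison, up to 3 genes per direction with the smallest adjusted p. Levels per length used exon lengths of GENCODE M21, to which 54495 identifiers matched. Similar transcripts were sought with BLAST 2.17.0. Labelled sex matched the data in 43 of 43 libraries, and 0 pairs of libraries were identical. Totals ran from 1626534 to 49372356 counts, so that 3 counts equal 0.0537 to 1.84 CPM, covering counting error only.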

Additional observations from a re-analysis of the deposited data

Results flagged for a closer look

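Within a strain, 15 of 64 groups of libraries held 1 library far from the others, by the gap limit of Dixon's outlier test. That limit is passed in about 1 in 20 groups only where values are normally distributed and the group is uniform. Groups here mixed sex, region and tag, so no rate expected by chance is set beside the 15. Of these, 7 were in genes with few reads (Nqo1, Cyp1b1 and Cyp1a1). Nqo1 reached 14.4 CPM in 1 A/J library (the others 0 to 3.86), 2.31 in C57BL/6J (the others 0), 8.65 in CAST/EiJ (0 to 3.24) and 10.5 in DBA/2J (0 to 1.52). Cyp1b1 reached 15.7 CPM in a female hippocampus library of C57BL/6J (the others 0 to 3.60) and 4.65 in one of 129S1/SvImJ (0 to 2.35). Cyp1a1 stood at 4.55 CPM in a male hippocampus library of 129S1/SvImJ titled low, with 0 in the others.

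Among the better measured genes, Gsta4 was 39.5 CPM in the female DBA/2J library (the others 8.49 to 13.5) and 56.2 in the female cortex library of WSB/EiJ (0 to 19.3). The latter library, with 2731954 counts, also had Por at 265.0 CPM (the others 49.3 to 121). Ahr was 52.9 CPM in a male cortex library of A/J titled high (6.71 to 16.2). Gstm1 was 259 CPM in a 129S1/SvImJ library (80.2 to 149) and 74.9 in a DBA/2J library, below the others (114 to 129). Gstm5 was 72.7 CPM in a NOD/ShiLtJ library (18.9 to 38.6), and Nfe2l2 was 115 CPM in the female DBA/2J library (19.1 to 41.1).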

How the results depend on the processing

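Gsta4 was called among strains in all 29 alternatives, with a fitted range of 3.40 to 5.23, and no called result changed its direction. The number of the 10 genes called among strains, 1, rose to 3 with edgeR's default deviances, and to 2 when counts were thinned to the smallest total or the libraries under 3000000 counts were left out, as Gstm1 passed. Of the pairs of strains, 10 were called for Gsta4 whichever A/J or DBA/2J library was left out, and 11 with DESeq2 size factors, covariates or default deviances. By region, 0 became 1 with DESeq2 and 2 with default deviances, and by tag 0 became 1 with DESeq2, 2 with default deviances and 1 with covariates. By sex, 1 became 3 with default deviances and 2 when thinned or without C57BL/6J, since Gsta4 passed (adjusted p = 0.0277 without C57BL/6J). It became 0 in cortex only (Gstm1 adjusted p = 0.107), in hippocampus only (0.503), without 129S1/SvImJ (0.0943), without A/J (0.0723), without NOD/ShiLtJ (0.0524), in libraries titled high (0.28), with covariates (0.134) and with the rRNA-like share as a covariate (0.525). By origin, 1 became 0 in cortex only (Gsta4 adjusted p = 0.188), without CAST/EiJ (0.0984) and without C57BL/6J and 129S1/SvImJ (0.658). The cause was not tested, though regions and left-out strains hold fewer libraries. Settings on shallow libraries, on the rRNA-like share and on the last origin comparison were chosen after seeing the data. Over all genes, calls ranged from 184 to 13525 among strains (781 as reported), 11 to 8023 by region (22), 5 to 8327 by tag (293), 59 to 10473 by sex (830) and 40 to 6712 by origin (218), the highest always with default deviances. DESeq2 called 1314, 55, 640, 1000 and 395. No paired analysis was possible because the labels do not tell which libraries came from the same mouse.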
